A study of Bos taurus with 8 samples.

Results

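The data described here are 4 of the 8 dual-colour arrays of the series, those on which RNA of granulosa cells from a Holstein heifer at 8 months of age was hybridised together with RNA of the same heifer at 14 months. They were chosen by their label, which names this pair of ages. The other 4 arrays set 11 against 14 months. Every heifer had been given progesterone and 6 injections of 30 mg FSH at intervals of 12 h, and follicles were aspirated through the vaginal wall 43 h after the last injection, at either age. RNA of pooled cells was amplified in 2 linear rounds before it was labelled. Cy5 marked the 8-month sample of heifers 1 and 2 while Cy3 marked that of heifers 3 and 4, so dye orientation and heifer pair cannot be told apart, while a dye effect cancels in the mean of the 4. Each heifer gave 1 sample per age, so age and the occasion of collection cannot be told apart either. Every label of these arrays names granulosa cells, although the submitters' design text mentions blastocysts and 10 animals.

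Granulosa cells are the somatic cells that surround the oocyte and line the follicle wall. Under FSH they divide and turn androgens from the theca layer into oestradiol, and after the LH surge they shift to progesterone. The comparison asks how stimulated granulosa cells of a prepubertal heifer compare with those collected from it at an age around puberty. All changes below are log2 of 8 over 14 months, so that 1 is a doubling at 8 months and -1 a halving, with the SD over the 4 heifers.

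The labelled cell type was checked against its markers. All 23 genes of the granulosa list on the array were above background in at least 1 sample at each age, and 18 were so in all 4 heifers at 8 months and 20 at 14 months. CYP19A1 (aromatase), FSHR, AMH, INHA, INHBA, GATA4 and HSD3B1 were above background in every sample, and FOXL2 in 3 at 8 months and 2 at 14 months. Neither probe of LHCGR, the LH receptor, met the filter on signal. Among blastocyst markers, NANOG, POU5F1, IFNT, EOMES, FGF4, DPPA4, PAG1 and PAG2 were not above background at either age. Among oocyte markers GDF9, ZAR1, NOBOX, NLRP5 and DAZL were not, and among endothelial ones PECAM1, CD34, TIE1 and FLT1. By the same count of at least 1 sample at either age, 16 of 24 blastocyst, 13 of 18 oocyte and 18 of 24 endothelial genes were above background, so other members of these lists did give signal. Between 45.4% and 51.4% of probes were above background per array and age.

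Genes of lining epithelia showed the largest rises at 8 months, and the falls were smaller and more alike in size. Limma called 2093 of 20567 probes, 10.2%, at an adjusted p under 0.05, of which 1010 rose (4.91%) and 1083 fell (5.27%). Judged by the brightest probe of each of 9577 genes, 1069 were called (11.2%), 565 risen (5.9%) and 504 fallen (5.26%). At least a 4-fold change was seen in 108 rises and in 0 falls, although 823 falls and 725 rises were at least 2-fold. The called rises had a median of 1.20 and reached 4.31, and the called falls had a median of -1.21 and reached -1.86. All 4 heifers shared a direction for 33.8% of probes and 35.3% of genes. They did for 1000 of the 1010 rises and 1077 of the 1083 falls, which follows largely from calling them on these same 4 ratios.

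Fewest probes were called when heifer 3 or 4 was left out. Without heifer 3, 99 probes were called, 98 risen and 1 fallen, and without heifer 4, 157 were called, 151 risen and 6 fallen. Without heifer 2, 409 were called, 328 risen and 81 fallen, and without heifer 1, 1838, of which 559 rose and 1279 fell. Ratios of heifers 3 and 4 correlated at 0.723 over probes, and those of the other 5 pairs of heifers at 0.397 to 0.471.

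Falls lay among the bright probes. Among the 5142 brightest kept probes 14.3% fell and 8.67% rose, and among the 5142 dimmest 0.175% fell and 0.642% rose. Of probes without a gene symbol 6.4% fell and 4.39% rose, and of those with a symbol 4.49% fell and 5.27% rose.

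**Figure D1:**
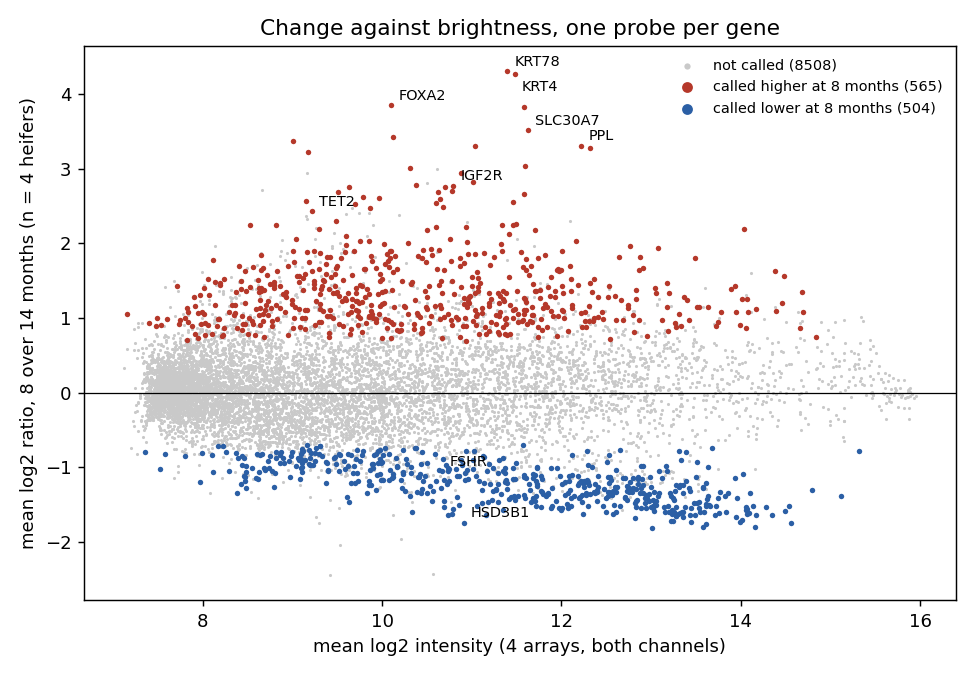
Mean log2 ratio of 8 over 14 months (vertical, n = 4 heifers) against mean log2 intensity (horizontal) for the brightest probe of 9577 genes. The 565 genes called higher (red) scatter up to 4.31, whereas the 504 called lower (blue) form a band that reaches -1.81 and lies at the bright side.

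Among the largest rises were keratins and proteins of the cornified layer. KRT78, a type II keratin of epithelia, stood at 5.97, 1.56, 4.47 and 5.23 in heifers 1 to 4. All 4 were higher at 8 months and heifer 2 least so, and the mean was 4.31 ± 1.93 (adjusted p = 0.0177), a 19.8-fold rise. KRT4, a keratin of mucosal linings, showed the same low value in heifer 2, with 6.01, 1.37, 4.95 and 4.73 (mean 4.27 ± 2.01, adjusted p = 0.0182). The rises of KRT6A (3.42 ± 2.11) and KRT6C (3.22 ± 1.76) are uncertain, since these keratins are near-identical copies, and probes for them may share signal. PPL encodes periplakin of the cornified envelope and was more even, at 3.40, 2.38, 4.00 and 3.46 (mean 3.31 ± 0.67, adjusted p = 0.00245). PI3, the elastase inhibitor elafin, stood at 6.07 in heifer 1 and between 2.17 and 2.58 in the others (mean 3.31 ± 1.85, adjusted p = 0.0231). CLDN4, a tight junction protein, stood at 5.65, 1.23, 2.88 and 2.38 (mean 3.04 ± 1.87, adjusted p = 0.0277).

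FOXA2 and WWC1 were highest in heifers 1 and 2. FOXA2, a forkhead factor of gut and uterine gland epithelium, stood at 5.18, 5.22, 2.50 and 2.51 (mean 3.85 ± 1.56, adjusted p = 0.0152), 14.5-fold. WWC1, a regulator of the Hippo pathway, stood at 5.27, 4.86, 2.98 and 2.20 (mean 3.83 ± 1.48, adjusted p = 0.0141), and its other probe gave 3.10. CKB, a creatine kinase, stood at 4.86, 2.54, 2.61 and 3.08 (mean 3.27 ± 1.08, adjusted p = 0.0102), with 0.89 for its other probe.

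SLC30A7 and RPRD2 did not follow either pattern. SLC30A7, which carries zinc into the Golgi, stood at 3.72, 3.50, 3.08 and 3.76, the least spread among the 12 largest rises (mean 3.51 ± 0.31, adjusted p = 0.00122), 11.4-fold. RPRD2 binds the tail of RNA polymerase II and stood at 2.56, 4.40, 3.71 and 2.82 (mean 3.37 ± 0.85, adjusted p = 0.00457). This probe was not above background on any array at 14 months, where its level is only a bound. The other probes of RPRD2 gave -0.03 and 0.35.

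The 12 largest falls lay between -1.81 and -1.68. Heifer 1 had the smallest fall in 11 of them, and heifer 3 was the lowest in 9. FBXW2, an F-box protein of ubiquitin ligases, stood at -0.60, -1.45, -2.78 and -2.43 (mean -1.81 ± 0.99, adjusted p = 0.026), 3.52-fold lower at 8 months, but its other probe gave 0.12. ITPK1, an inositol phosphate kinase, fell by 1.81 ± 0.82 and NRXN2, a neurexin, by 1.80 ± 0.48. TAF15, an RNA-binding protein of the FET family, stood at -1.06, -2.13, -2.20 and -1.68 (mean -1.77 ± 0.53, adjusted p = 0.0157). CHMP4B, part of the ESCRT-III membrane scission complex, fell by 1.75 ± 0.62, while its other probes gave 0.22 and 0.59. BCOR, a transcriptional corepressor, fell by 1.72 ± 1.00, PDK1, a kinase that restrains pyruvate dehydrogenase, by 1.72 ± 0.84 with -0.06 for its other probe, and RNF157, a ubiquitin ligase, by 1.73 ± 0.64. The lymphocyte receptor SLAMF6 fell by 1.70 ± 0.60, LRRC10B by 1.74 ± 1.02 and PRR12 by 1.68 ± 0.60. HSD3B1 differed in pattern, with -1.51, -3.53, -1.07 and -0.87, lowest in heifer 2 (mean -1.74 ± 1.22, adjusted p = 0.0406).

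Calls of these 24 genes depend on the number of heifers. With 1 heifer left out in turn, 22, 14, 6 and 7 of them passed without heifers 1, 2, 3 and 4. PPL, SLC30A7, FOXA2, WWC1 and CKB passed under all 18 alternatives tried, RPRD2 under the 17 in which it was tested, and the falls under 11 to 16 of 18.

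**Figure D2:**
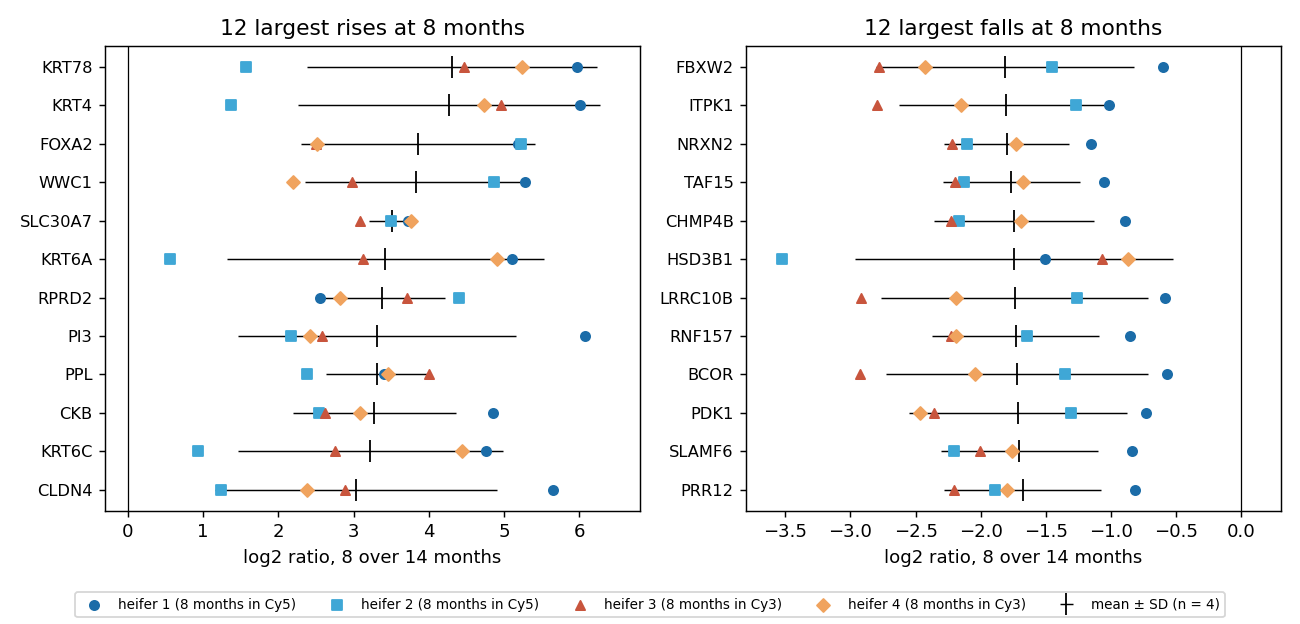
Log2 ratio of 8 over 14 months in each of 4 heifers (symbols) with mean and SD (bars) for the 12 largest rises, left, and the 12 largest falls, right. Heifer 2 is lowest for the keratins at 8 months, heifers 1 and 2 are highest for FOXA2 and WWC1, and heifer 1 lies nearest to 0 for 11 of the 12 falls.

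Probes called at 8 months were also read on the arrays of 11 against 14 months. These arrays share the 14-month age of the same heifers, and nothing read here tells whether the same RNA was used, so the values stand side by side without a test. Cy5 marked the 11-month sample of heifers 1 and 2 and Cy3 that of heifers 3 and 4. Dye orientation and heifer pair thus cannot be told apart on these arrays either. At 8 months the 1083 fallen probes lay at medians of -0.55, -1.33, -1.59 and -1.33 from heifer 1 to heifer 4. At 11 months their medians were -0.44, -2.27, -0.31 and 0.02, so that heifer 2 lay lower at 11 than at 8 months and heifer 4 lay near 0. NRXN2 stood at -3.20 in heifer 2 at 11 months and at 0.42 in heifer 4. For the 1010 risen probes the medians were 1.33, 1.36, 1.02 and 1.06 at 8 months and of 0.76, 0.50, 0.07 and 0.44 at 11 months.

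A small set of rises was large and nearly equal in the 4 heifers. Of the 108 rises of at least 4-fold, 26 had an SD under 0.5, and 19 of these 26 probes carried no gene symbol, against 10 of 48 with an SD over 1. Their medians were 2.76, 2.82, 2.59 and 2.62 in heifers 1 to 4 at 8 months. At 11 months they were 2.07, 2.04, 0.11 and 0.33, high in heifers 1 and 2 and near 0 in heifers 3 and 4. That split is also the dye orientation of the 11-month arrays, so dye and heifer pair cannot be told apart in it. The 7 with a symbol were SLC30A7, DDX6, TET2, SPSB3, CPEB3, MXI1 and CREB3L2, picked for naming after their values were seen. TET2, which oxidises methylated cytosine, stood at 2.10, 2.29, 2.61 and 2.74 at 8 months and at 1.83, 2.03, -0.23 and -0.23 at 11 months. DDX6, a helicase of processing bodies, stood at 3.00 ± 0.28 at 8 months, although its other probes gave 0.16 and 0.35.

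**Figure D3:**
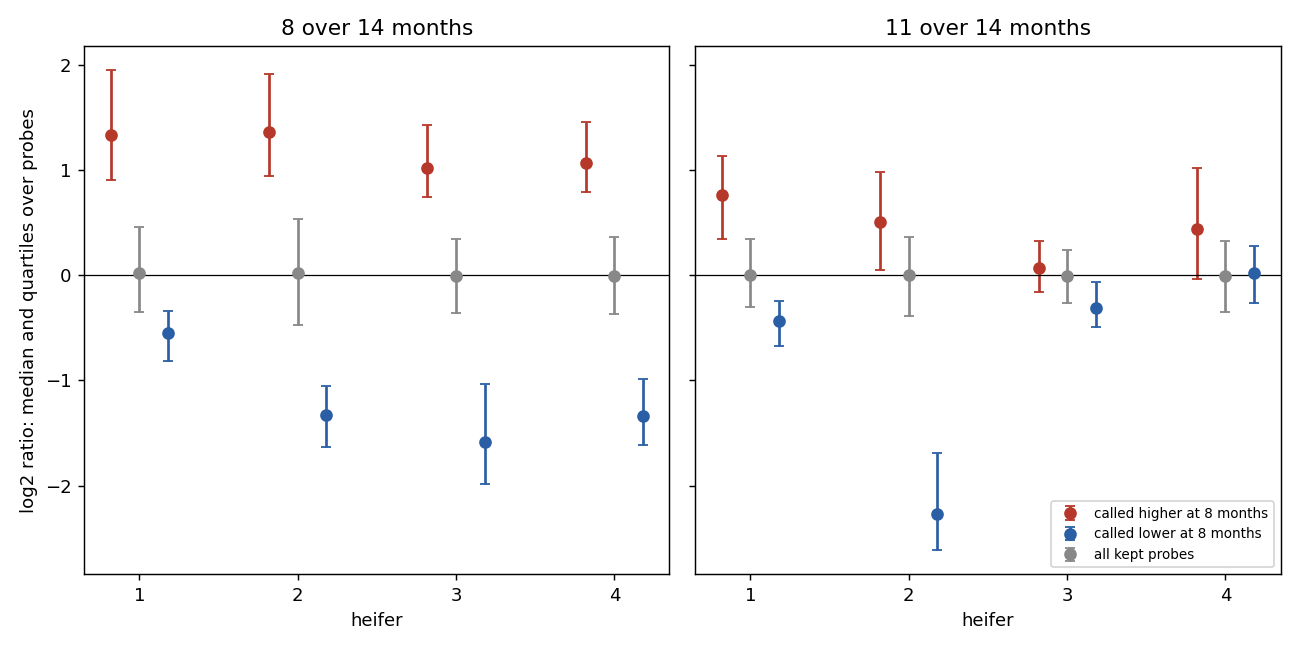
Median log2 ratio with quartiles, per heifer, of probes called higher (red) or lower (blue) at 8 months and of all kept probes (grey), on arrays of 8 over 14 months, left, and 11 over 14 months, right. On the right the blue probes have a median of -2.27 in heifer 2 and of 0.02 in heifer 4.

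Different probes of a gene often gave different answers. Of 1896 genes with 2 or more kept probes, 341 had a called probe, and in 301 of them a single probe was called. The called rises among them had a median of 1.12, and the other probes of the same genes 0.39, with the same sign in 155 of 199 cases. For the falls the medians were -1.12 and -0.10, with the same sign in 110 of 185. In 36 genes at least 2 probes were called in 1 direction, and in 25 every probe was. Among these, named after their values were seen, were the proton pump subunits ATP6V1B1 (2.57 and 1.59) and ATP6V0C (0.97 and 0.95), the apolipoprotein APOA1 (1.34 and 1.09), the transcription factor YY1 (1.66 and 1.14) and the sorting nexin SNX16 (1.52, 1.31 and 0.97). Falls of this kind were in PRKAA1, the catalytic subunit of AMP-activated kinase (-1.18 and -1.15), PTGR1, a prostaglandin reductase (-0.99 and -1.01), and ORMDL1, a regulator of sphingolipid synthesis (-0.96 and -1.02). Probes of SREBF2, MFSD14A, APCDD1 and PERP were called in both directions, PERP at -1.40 and 2.91, so that no direction is given for these genes.

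Signal above background at 1 age alone was rare. In all 4 heifers at 8 months and in none at 14 months 61 probes were above background. Of these 26 had a symbol and 21 were called. The other way there were 30, 17 with a symbol and 3 called, where 10.2% of all kept probes were called. Besides RPRD2, a probe of WT1, the Wilms tumour factor of gonadal somatic cells, was of the first kind (3.18, 4.21, 1.98 and 0.46, adjusted p = 0.0327), although the brightest probe of WT1 averaged 0.00 ± 1.10. The probe of TXLNA was too (1.43 ± 0.41, adjusted p = 0.0182). In the other direction P2RY13, a purine receptor, fell by 0.79 ± 0.33 (adjusted p = 0.0481). At the age without signal the level of such a probe is only a bound. Such probes were picked by signal at 1 age alone, so their direction is largely set by that choice. Their calls and p-values add no support for it.

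Markers of stratified squamous epithelium, which covers skin and vagina, had higher medians at 8 months in each heifer. Of 39 genes on the array 20 passed the filter on signal, 3 of them through 8 months alone and 0 through 14 months alone, so the filter itself favours genes high at 8 months. Of the 20, 11 rose and 0 fell, where 11.2% of all genes were called, and the median was 3.29, 0.73, 1.84 and 2.76 in heifers 1 to 4. In the planned stricter filter, which keeps probes above background in every heifer at both ages, 14 members were left, of which 8 rose and 0 fell with a median of 1.91. That filter kept 7008 genes, of which 16.6% were called, with a median of 0.01. Besides the genes above, DSP, the desmosomal protein desmoplakin, rose by 2.24 ± 0.85, the basal keratin KRT5 by 2.25 ± 0.91, KRT17 by 2.76 ± 2.04 and SFN, an epithelial 14-3-3 protein, by 2.06 ± 1.44. At 14 months KRT5 was above background in 1 heifer and KRT6C in 2. Both passed through 8 months alone, so their direction is in part set by the filter. The summed intensity of the 20 genes, in array units, was 191000, 44700, 77900 and 197000 at 8 months. At 14 months it was 9880, 19800, 13300 and 23500. The ages did not overlap, but the sum holds the 3 genes that passed through 8 months alone, so the filter may add to this gap. CSTA, LY6D, PKP3 and SERPINB5 of this list were not above background at either age. Counts of risen members were 8, 12, 2 and 1 without heifers 1, 2, 3 and 4, and without heifer 1 a single member fell. In such bulk samples more cells of a type and more RNA per cell cannot be told apart, and the part these markers have in other changes was not tested.

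Genes of epithelial junctions were higher too. Of 34 genes on the array 22 passed, 5 through 8 months alone and 0 through 14 months alone. Of the 22, 10 rose and 0 fell, where 11.2% of all genes were called, with medians of 1.70, 1.39, 0.58 and 0.59 from heifer 1 to heifer 4. Under the stricter filter 14 members were left, of which 8 rose and 0 fell, with a median of 1.41. KRT7, a keratin of simple epithelia, stood at 4.09, 1.98, 2.22 and 2.36 (mean 2.66 ± 0.97, adjusted p = 0.0141). The claudin CLDN7 rose by 1.46 ± 0.31 and the junction scaffold TJP3 by 1.42 ± 0.49. CLDN7 was above background in 4 heifers at 8 months and in 1 at 14 months. It passed through 8 months alone, so its direction is in part set by the filter. MUC1, a surface mucin, rose by 2.69 ± 1.65 and ESRP1, an epithelial splicing regulator, by 1.40 ± 0.69. The summed intensity ran from 109000 to 204000 at 8 months and from 48500 to 82100 at 14 months. This sum holds the 5 genes that passed through 8 months alone, so the filter may add to the gap. CDH1 and CLDN8 were not above background at either age. Counts of rises were 6, 5, 0 and 3 without heifers 1, 2, 3 and 4.

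Genes of motile cilia separated the heifers. Of 46 genes on the array 25 passed the filter, 11 of them through 8 months alone and 2 through 14 months alone, so their common direction is in part set by the filter. The medians of the 25 were 1.11 and 2.47 in heifers 1 and 2 and 0.12 and 0.15 in heifers 3 and 4. Of the 25, 8% were called, near the 11.2% of all genes, and both called genes rose, the axonemal dynein DNAH11 by 1.69 ± 0.62 and CCDC40, which sets the spacing of the axoneme, by 1.14 ± 0.56. At 8 months the summed intensity was 67300, 234000, 8930 and 9160, and at 14 months 8850, 10300, 7440 and 8130. Only heifers 1 and 2 at 8 months stood apart. FOXJ1, the master regulator of motile cilia, stood at 0.26 ± 0.31, and SPAG16 was not above background at either age.

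The split between heifers 1 and 2 and heifers 3 and 4 was tested as a term of its own, which is also the dye orientation. Limma called 1 probe, 0.00486%, and 2654 at an unadjusted p under 0.05, 12.9%. The called probe is DNAH9, an axonemal dynein, at 5.57 and 5.42 in heifers 1 and 2 against 0.25 and 0.53 in heifers 3 and 4, a difference of 5.10 (adjusted p = 0.0493). DNAH9 was above background in 3 heifers at 8 months and in 1 at 14 months. It passed the filter through 8 months alone, and where it lacked signal its level is only a bound. Next by p, without passing, were ROPN1L of the radial spoke with 4.76, 5.63, 0.12 and 0.00, and CXHXORF41 with 4.94, 5.30, 0.05 and 0.55. The epithelial transcription factor SPDEF stood at 3.83, 4.36, 0.28 and -0.31 and MYB, a factor in multiciliated cell formation, at 3.51, 4.35, -0.27 and -0.85. ATP2B4, a calcium pump, had opposite signs, 2.12 and 1.77 against -2.28 and -1.89, where its other probes had means of 0.41 and 0.89. Lower in heifers 1 and 2 were LRRC8D, a subunit of volume-regulated anion channels, with -1.81, -1.94, 0.26 and 0.27, and ANGPT2, a vessel-destabilising ligand, with -1.49, -1.39, 0.69 and 0.57. GPX7, ELL2, CLDN14 and UGGT2 shared that order of pairs, without passing.

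Markers of other cells moved less evenly. The shares called were 18.8% of oviduct and uterine, 22.2% of theca and 25% of blastocyst genes, where 11.2% of all genes were called. They were 6.67% of leukocyte genes and 5.88% of those of stroma and smooth muscle, below the share of all genes. Of 16 genes of oviduct and uterine secretory epithelium 3 rose, FOXA2, UPK3B (1.23 ± 0.62) and the Müllerian duct factor EMX2 (1.91 ± 1.31). The median was 0.30, and the summed intensity overlapped, with 26000 to 113000 at 8 months and 28300 to 79300 at 14 months. Of 30 leukocyte genes 2 fell and 0 rose, SRGN, the proteoglycan core of secretory granules, by 1.54 ± 0.42 and PTPRC, the pan-leukocyte phosphatase CD45, by 1.66 ± 1.11. Leukocyte medians were 0.62, -1.70, -0.02 and -0.29 in heifers 1 to 4, so heifers 1 and 2 lay on opposite sides, and without heifer 2 the median was 0.01, with 2 risen and 1 fallen. Their summed intensity was 35300 to 74900 at 8 months and 70100 to 98100 at 14 months. Of 9 theca genes 2 rose, THY1 by 1.08 ± 0.42 and ANPEP by 1.71 ± 1.05, and CYP17A1, the androgen-making enzyme of theca, was not above background. FBLN2, a matrix protein, was the 1 called gene of 17 for stroma and smooth muscle and rose by 1.91 ± 1.02. Of 8 measured genes of the blastocyst list 2 rose, KRT8 (1.56 ± 0.97), which the epithelial list holds too, and ELF5 (1.56 ± 0.78), a factor of epithelia and trophoblast. Limma called 0 of 6 endothelial, 0 of 5 oocyte and 0 of 5 red blood cell genes, with 1, 2 and 1 of them at an unadjusted p under 0.05.

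**Figure D4:**
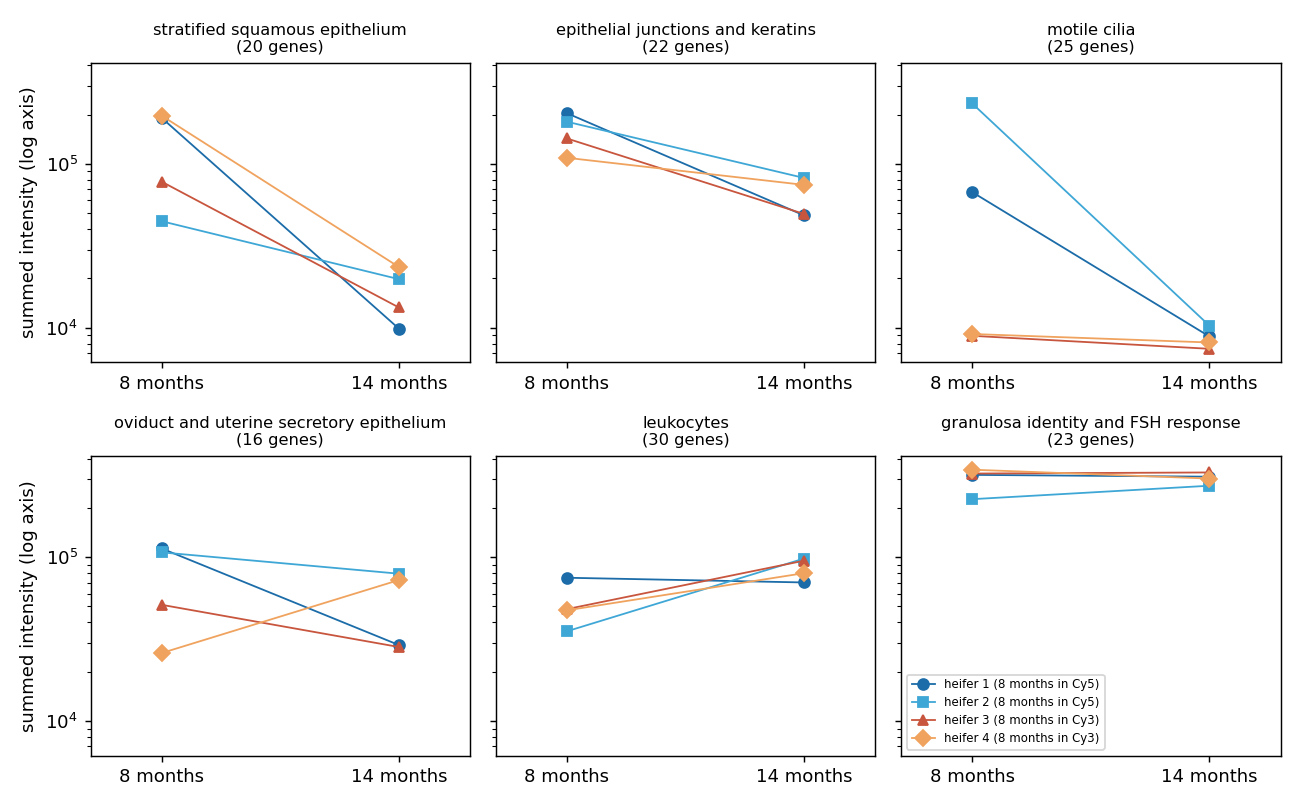
Summed intensity of the measured genes of 6 lists (vertical, log axis, array units) at 8 and at 14 months, with a line per heifer. Squamous and epithelial sums are higher at 8 months in all 4 heifers, though both hold genes kept through 8 months alone. The sums of motile cilia are higher in heifers 1 and 2 by far. Those of granulosa genes overlap between ages, with 226000 to 342000 at 8 months and 273000 to 329000 at 14 months.

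Of 23 granulosa genes 1 rose and 1 fell, 8.7% of the list and near the 11.2% of all genes. Without heifer 1, 3 or 4 0 were called, and without heifer 2 there were 2 risen and 0 fallen. The list had a median of -0.15, and of 0.01, -0.90, -0.17 and 0.17 by heifer. FSHR, the FSH receptor, stood at -1.59, -1.22, -0.77 and -0.63, lower at 8 months in each heifer (mean -1.05 ± 0.44, adjusted p = 0.0307). With any 1 heifer left out FSHR was not called. CCND2, the cyclin through which FSH drives granulosa division, stood at 0.66, 0.80, 0.76 and 0.73 and rose by 0.74 ± 0.06 (adjusted p = 0.0399). Aromatase, CYP19A1, was lower in each heifer too, at -0.90, -1.85, -0.42 and -0.76, but did not pass (mean -0.98 ± 0.61, adjusted p = 0.0522), and its other probes gave values from -0.73 to 0.05. AMH, the hormone of small growing follicles, stood at 0.27, -0.43, 1.42 and 1.43 (adjusted p = 0.25), INHA at -0.02 ± 0.13, INHBA at -0.35 ± 0.26, FOXL2 at 0.15 ± 0.40 and GATA4 at 0.14 ± 1.07.

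Steroidogenesis had the lowest median of the 44 lists, -0.57, with -0.70, -1.25, -0.20 and -0.18 in heifers 1 to 4. Of its 14 measured members 4 fell and 0 rose, 28.6% where 11.2% of all genes were called. Of the 14, 2 passed the filter on signal through 14 months alone and 1 through 8 months alone. Under the stricter filter 10 members were left, of which 2 fell and 0 rose. That is 20%, near the 16.6% of all genes called under that filter. HSD3B1, which makes progesterone from pregnenolone, is given above. NPC1, which releases cholesterol from endosomes, stood at -1.29, -1.05, -1.11 and -0.57 and fell by 1.00 ± 0.31 (adjusted p = 0.0271). TSPO, a cholesterol-binding protein of the outer mitochondrial membrane, stood at -0.22, -1.72, -2.01 and -1.41 (mean -1.34 ± 0.79, adjusted p = 0.0352). RGN, a calcium-binding protein, fell by 1.34 ± 0.60. It was above background in 2 heifers at 8 months and in 4 at 14 months, so it passed through 14 months alone. STAR, which moves cholesterol into mitochondria, stood at 3.12 in heifer 1 and between -0.81 and 0.19 in the others. Without heifer 1 a single gene of the list fell, and 0 did without heifer 2, 3 or 4.

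The cell cycle list had a median of -0.37, with 4 of 31 members higher at 8 months, where 51.6% of all genes were, and with 3 fallen and 0 risen. MAD2L1 of the spindle checkpoint stood at -1.16, -1.65, -1.22 and -0.93 (mean -1.24 ± 0.30, adjusted p = 0.0195), and its other probe gave -0.94. CCNB1, the mitotic cyclin, fell by 1.16 ± 0.38 and BIRC5, survivin, by 0.94 ± 0.21. The share called, 9.68%, is near the 11.2% of all genes, and 0 were called without heifer 3 or 4. Of 13 genes of the ovulatory and LH response 0 were called, with 4 at an unadjusted p under 0.05. In that list BTC, an EGF-family ligand, stood at 0.99 ± 0.65, the immediate early factor EGR1 at 0.91 ± 0.58 and the progesterone receptor PGR at -0.60 ± 0.45.

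Of 11 genes of IGF and insulin signalling 4 rose and 0 fell (median 0.51), 36.4% where 11.2% of all genes were called. IGF2R, which clears IGF2, stood at 3.08, 1.82, 3.11 and 3.10 (mean 2.78 ± 0.64, adjusted p = 0.00485), 6.85-fold. AKT2, a kinase downstream of insulin, stood at 2.14, 2.24, 1.67 and 1.69 (mean 1.93 ± 0.30, adjusted p = 0.00621). The insulin receptor INSR rose by 1.22 ± 0.36 and the binding protein IGFBP3 by 1.83 ± 1.35. IGF1 and PAPPA were not above background at either age. Without heifer 3 the list's median was 0.19 and 2 members rose.

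Of 28 stress and immediate early genes 5 rose and 0 fell, 17.9% where 11.2% of all genes were called, with a median of 0.40. Without heifer 1 the median was 0.12, with 2 risen and 1 fallen, and without heifer 2, 3 or 4 a single gene rose. JUNB, a subunit of AP-1, stood at 1.75, 1.88, 1.34 and 1.63 (mean 1.65 ± 0.23, adjusted p = 0.00975) at 8 months, and at 1.46, 1.88, -0.45 and -0.05 at 11 months. The split of JUNB at 11 months is also that of dye orientation. JUND rose by 1.00 ± 0.39 and IER3 by 0.88 ± 0.39. Of 25 interferon response genes 3 rose, 12% and near the share of all genes, and 0 did without heifer 3. They were the regulator IRF7 by 1.84 ± 0.45, the RNA sensor DHX58 by 1.53 ± 0.29 and RSAD2, viperin, by 1.40 ± 0.99, with RSAD2 at 0.06 in heifer 4. The median of the list, 0.25, was 0.04 without heifer 1 and 0.50 without heifer 4. Of 24 apoptosis regulators 16.7% were called, where 11.2% of all genes were. Among them 3 rose, with CASP8 by 1.39 ± 0.73 and the BCL2 relative BOK by 1.28 ± 0.59. FASLG, the Fas ligand, fell by 1.47 ± 0.69. In this list 0 were called without heifer 3 or 4.

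Signalling lists moved in both directions. Of 16 Notch genes 3 rose and 3 fell, 37.5% where 11.2% of all genes were called. RBPJ, the DNA-binding effector of Notch, stood at 1.38, 1.39, 1.48 and 1.07 (mean 1.33 ± 0.18, adjusted p = 0.0161), and the ligands JAG1 and DLL4 rose by 1.45 ± 0.75 and 0.88 ± 0.45. LFNG, which glycosylates Notch, fell by 1.51 ± 0.51, the ligand JAG2 by 1.26 ± 0.59 with 0.13 for its other probe, and the receptor NOTCH1 by 1.37 ± 0.72 with 0.12 for its other probe. Of 14 Wnt genes 3 fell and 0 rose, the coreceptor LRP6 by 1.39 ± 0.87, the receptor FZD4 by 1.33 ± 0.78 and the secreted DKK3 by 1.08 ± 0.53, each with heifer 1 nearest to 0. Without heifer 3 or 4 0 Notch genes were called, and without heifer 2, 3 or 4 0 Wnt genes. Of 14 Hippo genes 2 rose, WWC1 and the coactivator WWTR1 (1.18 ± 0.53). The share called was 21.4% in the Wnt list and 14.3% in the Hippo list, the latter near that of all genes.

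Chromatin regulators had 6 rises and 2 falls among 31 genes (median 0.14), and 2 rises and 0 falls without heifer 2, 3 or 4. With all 4 heifers 25.8% were called, where 11.2% of all genes were. SUZ12 of the Polycomb repressive complex stood at 2.33, 1.69, 1.69 and 2.79 (mean 2.12 ± 0.54, adjusted p = 0.00963), and the remodeller CHD4 rose by 1.27 ± 0.42. TET3 fell by 1.55 ± 0.72 while TET2 rose, and SMARCA2 fell by 1.53 ± 0.64, with its other probes between -0.03 and 0.14. Of 42 hnRNP and splicing genes 4 fell and 0 rose around a median of 0.01. That is 9.52%, near the 11.2% of all genes, and the falls were 4, 4, 1 and 0 without heifers 1, 2, 3 and 4. HNRNPL stood at -1.07, -1.71, -1.94 and -1.95 (mean -1.67 ± 0.41, adjusted p = 0.0141), and HNRNPC fell by 1.32 ± 0.22. HNRNPK fell by 1.61 ± 0.26, but it has near-identical copies in the genome and its signal is uncertain. HNRNPK and HNRNPL stood at -2.56 and -2.72 in heifer 2 at 11 months.

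Among nuclear transport factors 4 of 27 rose and 2 fell, with the importin KPNA6 at 1.59 ± 0.28 and the nucleoporins NUP98 and NUP85 at -1.63 ± 0.55 and -1.08 ± 0.34. Of 38 ubiquitin ligases 5 rose and 2 fell, TRIM25 by 1.89 ± 0.50 and TRIM8 by 1.82 ± 0.51 among the rises. The shares called were 22.2% of nuclear transport factors and 18.4% of ubiquitin ligases, where 11.2% of all genes were called. Without heifer 4 a single gene of each of these lists was called, and it rose. Of 37 genes of the actin cytoskeleton 7 rose and 0 fell (median 0.25), among them ACTB at 0.75, 1.07, 1.05 and 1.57 (mean 1.11 ± 0.34, adjusted p = 0.0233), ACTN4 (1.13 ± 0.51) and ARPC1B (1.09 ± 0.50). Of the actin list 18.9% were called, against the 11.2% of all genes. Without heifers 1, 2, 3 and 4 the rises in this list were 1, 2, 0 and 1.

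**Figure D5:**
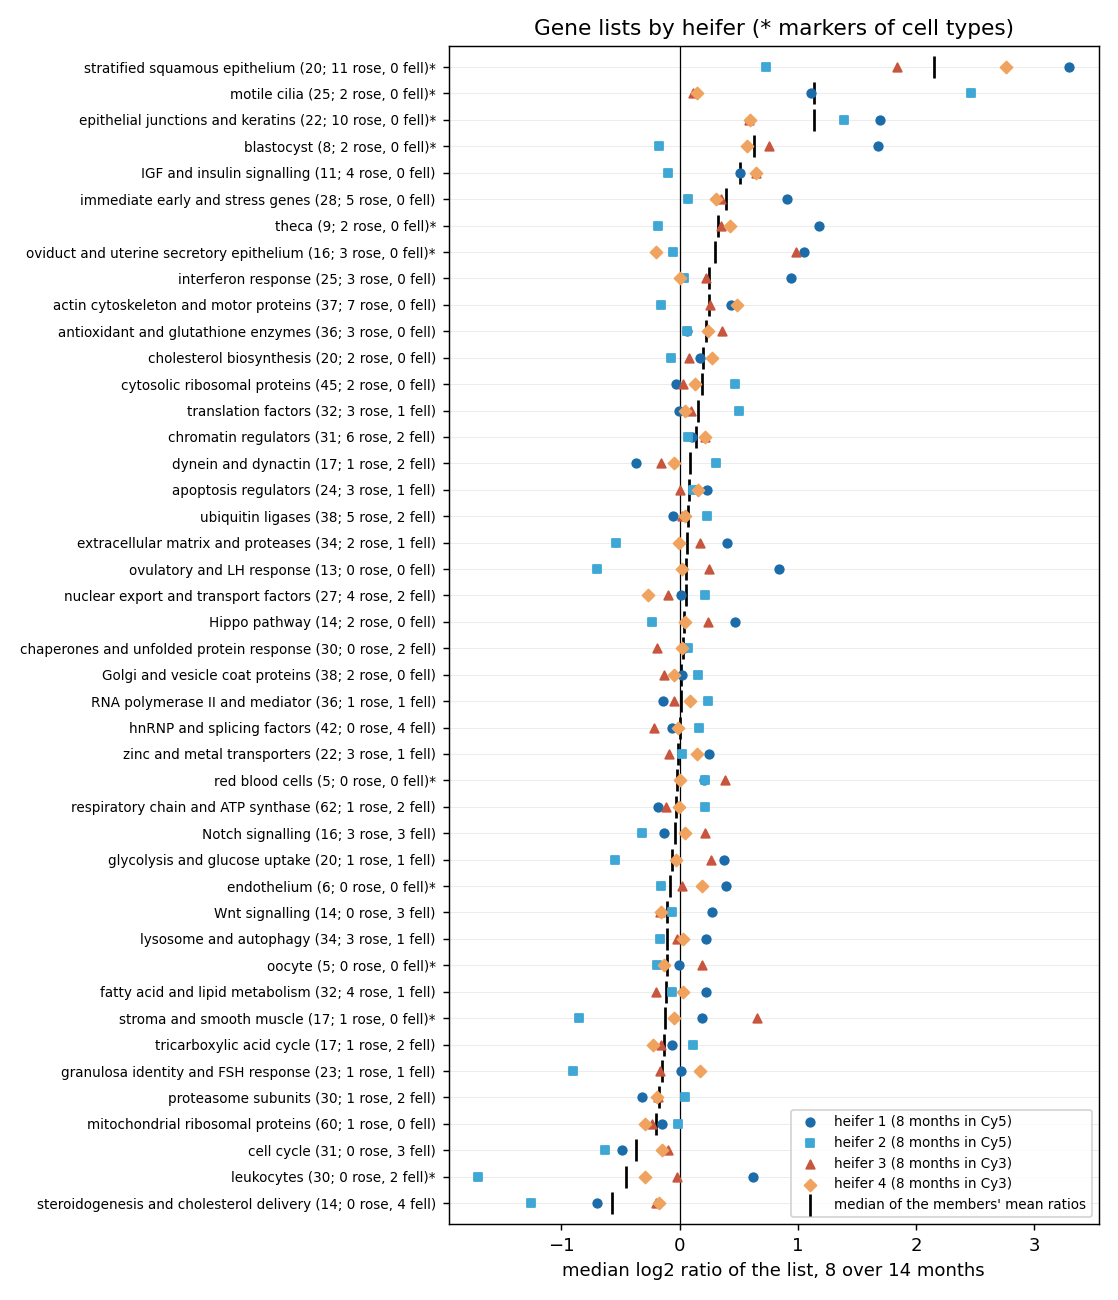
Median log2 ratio of 8 over 14 months per heifer (symbols) and the median of the members' mean ratios (bars) for 44 gene lists, with the number of measured members and of members that rose or fell. Stratified squamous epithelium lies highest at 2.15, steroidogenesis lowest at -0.57, and most lists of housekeeping functions lie near 0.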

How the data were processed

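RNA of 4 heifers at 8 and 14 months was measured on 4 dual-colour arrays. The log2 ratios deposited by the authors were set against the deposited scanner intensities, which per the file headers are median pixel values without correction. They followed Cy5 over Cy3 of background-subtracted intensities after loess (r at least 0.9998, slopes 0.997 to 1.00). The authors' method of normalization, the image software and the genome build are not given in the sources used here. Ratios of heifers 3 and 4 were turned so that all read 8 over 14 months. Spots that the scanner table marks as left out, 21 to 59 per array, were removed, so that 75 kept probes have values in 3 heifers.

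Of 43794 probes, 20567 were kept because their intensity exceeded the mean of 153 negative controls by 2 SD in at least 3 heifers at 8 or at 14 months. The mean ratio was tested against 0 with limma 3.58.1 in R 4.3.3 (eBayes, 3 residual and 4.76 prior degrees of freedom), with Benjamini-Hochberg adjustment over kept probes and a threshold of 0.05. All p-values come from this fit, apart from those for dye orientation, which come from a limma fit with a term for it. An exact test of 1 gene over 4 ratios cannot go below 0.125, two-sided. The test was tried on simulated data. Median intensities were 287 to 324 at 8 months and 220 to 266 at 14 months, and precision is limited by how few arrays there are. Summed intensities are channel values after loess and scaling between arrays.

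Symbols come from the platform annotation. The bovine RefSeq gene table (ARS-UCD2.0) holds the symbol of 20025 probes; 1524 more were found under a newer symbol, 241 did not match and 22004 have none. The brightest kept probe stands for a gene. No sequences were used here. The arrays and the 44 gene lists were chosen with earlier results of these data known. Genes named are the 12 largest rises and falls with 1 direction in 4 heifers, the 3 members of each list with the smallest p, the 6 genes per direction with the smallest p for dye orientation, and 10 genes that check the cell type. Other genes were picked after their values were seen. Replicate numbers pair the arrays of both comparisons, since the labels name the same animals. Each heifer's deviations on both arrays had correlations of 0.369, 0.278, 0.415 and -0.131 from heifer 1 to heifer 4. Alternatives covered the source of the ratios, normalization, centring, scale, filters, a dye term, array weights, the variance prior, all 8 arrays with a replicate block, and each heifer left out. Leaving out heifers 1 and 2 together, and the trend and robust options of the prior on their own, were chosen after seeing the data.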

Additional observations from a re-analysis of the deposited data

Results flagged for a closer look

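Among 211 groups of 4 heifers, 167 named genes and 44 gene lists, 5 genes had a heifer far from the other 3 by Dixon's test at its usual threshold, and 0 lists did. Most of these genes were picked on the same 4 ratios, so the count cannot be set against a rate given by chance. PI3, the elastase inhibitor, stood at 6.07 in heifer 1 and between 2.17 and 2.58 in the others. In the other 4 genes heifer 2 stood apart. IGF2R was at 1.82 there and between 3.08 and 3.11 elsewhere, the glucose transporter SLC2A1 at 1.57 against 0.36 to 0.50, the chaperone CALR at 0.35 against 0.82 to 0.89, and AHSP, the haemoglobin-stabilising protein, at 1.37 against 0.19 to 0.38.

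DNAH9 differed between the heifers with 8 months in Cy5 and those with 8 months in Cy3, by 5.10 (adjusted p = 0.0493, limma). It was above background in 3 heifers at 8 months and in 1 at 14 months, so much of its 14-month level is only a bound. Orientation and heifer pair cannot be told apart.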

How the results depend on the processing

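All called probes tested again kept their direction under all 18 alternatives. That follows largely from their selection, since 1000 of the 1010 rises and 1077 of the 1083 falls shared a direction in all 4 heifers. The alternatives also reuse these arrays. The count of 2093 calls (1010 risen, 1083 fallen) was within 1.5 times for the scanner intensities, centring, scaling, both filters and the variance priors. It was 3146 with a dye term (1569 risen) and 3540 with array weights (1618 risen, 1922 fallen). On all 8 arrays it was 1050 with the heifer as replicate block and a dye term (848 risen, 202 fallen) and 787 with the replicate block alone (639 risen, 148 fallen). That fit uses the 11-month arrays for the spread, with heifer correlations of 0.165 and 0.327. With 1 heifer left out the count ran from 99 to 1838, the rises from 98 to 559 and the falls from 1 to 1279. Without heifers 1 and 2, with 8 months in Cy3 only, it was 4148 (1882 risen, 2266 fallen), and a dye effect is then not cancelled. Rises made up 58.8% of the calls with median centring in place of loess (1304 risen, 912 fallen), which moved the median of all probes to 0.09, against 48.3%. The single call by dye orientation became 12 with normexp and loess, 3 with normexp and median centring and 0 with ratios centred on kept probes. It became 23 with scaled arrays, 24 without a filter, 0 with the stricter filter and 24 with trend and robust priors. The stricter filter leaves out DNAH9, the probe called. The cause of the other changes in this count was not tested. The median of the list of chromatin regulators and those of 8 other lists moved by more than the spread between heifers under at least 1 alternative. Under the stricter filter, which leaves fewer members, oviduct and uterine genes had a median of 1.21. Signal over background limits the dim probes, of which few were called.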

Other observations

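The lists in this section held few calls each, where 11.2% of all genes were called. Their shares ran from 1.67% in mitochondrial ribosomal proteins to 18.2% in metal transporters. Some function lists described earlier had higher shares, such as chromatin regulators with 25.8%. Of 32 translation factors 3 rose, EIF4A1 by 1.13 ± 0.20, EIF6 by 1.08 ± 0.14 and EEF2 by 1.20 ± 0.39 on its brightest probe and 0.98 on the other, and 1 fell. Of 45 cytosolic ribosomal proteins 2 rose, RPLP2 by 1.08 ± 0.30 and RPS12 by 0.86 ± 0.25. Of 60 mitochondrial ribosomal proteins 40 were lower and 1 rose, MRPS34 by 1.32 ± 0.11, although its other probe gave 0.12. Of 62 respiratory genes 1 rose, the complex III subunit CYC1 (0.96 ± 0.44), and 2 fell, NDUFS4 (-0.93 ± 0.26) and NDUFV2 (-0.79 ± 0.19) of complex I. In the tricarboxylic acid cycle OGDH rose by 1.43 ± 0.37, while IDH3A fell by 1.46 ± 0.49 and MDH2 by 0.97 ± 0.29, of 17 genes. Of 20 glycolytic genes PFKL, a phosphofructokinase, rose by 1.64 ± 0.36 and PDK1 fell. Of 30 proteasome genes PSMD4 rose by 1.43 ± 0.61, and PSMB1 and PSMD6 fell by 1.05 ± 0.30 and 0.88 ± 0.22. Among 30 chaperone and unfolded protein genes the stress factor ATF4 and HERPUD1, a protein of degradation at the endoplasmic reticulum, fell by 1.08 ± 0.25 and 1.19 ± 0.54. Of 36 RNA polymerase II and mediator genes POLR2L rose by 0.95 ± 0.42 and POLR2D fell by 0.80 ± 0.13.

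Lysosomal genes held rises in LAMP1 (1.32 ± 0.22, with 0.97 on its other probe), the saposin precursor PSAP (1.81 ± 0.73) and the protease CTSD (1.64 ± 1.06), and 1 fall, among 34. Of 38 Golgi and vesicle coat genes AP1B1 and TMED2 rose by 1.15 ± 0.30 and 0.88 ± 0.33. Of 17 dynein and dynactin genes PAFAH1B1 (LIS1) rose by 1.17 ± 0.57 and DCTN5 and DYNLL2 fell by 1.56 ± 0.41 and 1.60 ± 0.82, with 0.86 on the other probe of DYNLL2. The lipid list had 4 rises and 1 fall of 32, with the triglyceride lipase PNPLA2 at 1.20 ± 0.30 and the elongase ELOVL1 at 1.04 ± 0.31. Among 20 genes of cholesterol biosynthesis the regulator SREBF1 rose by 1.84 ± 0.80, and SREBF2 was called in opposite directions on its 2 probes. Of 36 antioxidant genes 3 rose, HMOX2 by 1.49 ± 0.64, GSTT1 by 1.39 ± 0.82 and MGST2 by 0.79 ± 0.14. Of 34 matrix genes the protease MMP14 rose by 1.45 ± 0.38, LAMA5 by 1.18 ± 0.77, and the heparan sulfate proteoglycan HSPG2 fell by 1.27 ± 0.80. Of 22 metal transporters 3 rose and 1 fell, with SLC39A3 at 0.77 ± 0.24 and SLC39A13 at 0.85 ± 0.42 beside SLC30A7. SLC39A3 was above background in 4 heifers at 8 months and in 2 at 14 months, so it passed the filter through 8 months alone.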
